A study of Sus scrofa with 24 samples.

Results

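The miRNAs at the proximal end of the imprinted DLK1-DIO3 locus of the pig, from ssc-miR-493 to ssc-miR-370, were followed in small RNA libraries of cultured adipocytes. They were taken as every row of the deposited expression table named ssc-miR-493, ssc-miR-127, ssc-miR-432, ssc-miR-136 or ssc-miR-370, with any arm, which gave 8 rows of 1587. The group was chosen by its place on the chromosome and on the TPM values themselves, namely the time course within BF and within IMF and the agreement of the arms of a precursor. Adipocytes derived from back subcutaneous fat (BF) and from intramuscular fat of the longissimus dorsi (IMF) of 6-day-old Yorkshire piglets were collected on day 0, before differentiation was induced, and on days 2, 4 and 8, with 3 libraries in each of the 8 groups. All groups were primary cultures that differed in tissue of origin and in day. The medium changed with the day. It held IBMX, dexamethasone and insulin up to day 2 and insulin alone up to day 4, and was growth medium after that. Day and medium therefore cannot be told apart. Muscle was also digested longer and with more collagenase than fat. The 3 piglets of the study were not linked to single libraries, so that the spread between libraries may be technical in part. Values are given as TPM, here the reads of a miRNA per 1000000 reads counted on miRNAs in that library. Libraries held 4954845 to 16863560 such reads, so that 1 read was worth 0.0593 to 0.202 TPM, and ssc-miR-21-5p alone took 27.9% to 60.5% of them.

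The DLK1-DIO3 locus is an imprinted chromosome region. Its protein-coding genes DLK1, RTL1 and DIO3 are expressed from the chromosome inherited from the father, while the long noncoding RNA MEG3 and a long series of miRNAs are expressed from the chromosome inherited from the mother. DLK1, also known as Pref-1, is a transmembrane protein known for holding preadipocytes back from differentiation. The miRNAs are cut from long transcripts that run on from MEG3, and each precursor hairpin can yield a mature miRNA from its 5p arm, its 3p arm or both. miR-127 and miR-136 are transcribed antisense to RTL1 and are known to pair with its mRNA over their whole length. miR-370 is known for its link to fatty acid oxidation in liver cells. A miRNA chooses its targets mainly through its seed, bases 2 to 8 from the 5′ end.

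The mature sequences are shown because the members share a locus and, as the capitals that mark the seeds show, share no seed. All 8 were read from the list of mature sequences that accompanies the study.

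ssc-miR-493-5p: tTGTACATggtaggctttcatt
ssc-miR-493-3p: tGAAGGTCtactgtgtgccagg
ssc-miR-127: tCGGATCCgtctgagcttggct
ssc-miR-432-5p: tCTTGGAGtaggtcattgggt
ssc-miR-432-3p: tGGATGGCtcctccatggct
ssc-miR-136-5p: aCTCCATTtgttttgatgatgga
ssc-miR-136-3p: cATCATCGtctcaaatgagtct
ssc-miR-370: gCCTGCTGgggtggaacctggt

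Among the 958 entries for which a mature sequence was at hand, the seed of miR-127 recurred in 1 further entry, novel_miR_25, which reached at most 0.322 TPM, and the other 7 seeds did not recur. GC content ranged from 34.8% in ssc-miR-136-5p to 68.2% in ssc-miR-370.

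Exact matches of these sequences to Sscrofa11.1, the build the authors mapped to, placed all of them on the plus strand of chromosome 7 within 39.1 kb. ssc-miR-493-5p lies at chr7:121697847-121697868 and ssc-miR-493-3p at chr7:121697888-121697909, 37.4 kb beyond the annotated end of MEG3. ssc-miR-127 follows after 11.8 kb at chr7:121709688-121709709, opposite the coding sequence of RTL1 on the minus strand. ssc-miR-432-5p lies 1.5 kb further at chr7:121711143-121711163, and its 3p arm at chr7:121711192-121711211. ssc-miR-136-5p begins 199 bases behind ssc-miR-432-5p, at chr7:121711342-121711364, and ssc-miR-136-3p lies at chr7:121711376-121711397. The miR-432 and miR-136 hairpins are also opposite the RTL1 coding sequence and within an intron of the noncoding transcript LOC106504559. ssc-miR-370 lies 25.6 kb downstream at chr7:121736941-121736962, in an exon of the noncoding transcript LOC102163738. ssc-miR-493-3p has a further exact copy at chr2:120316067-120316088 on the minus strand, opposite an intron of COMMD10, and its reads cannot be assigned to one of these places. The other members have 1 exact copy each.

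Levels spanned more than 4 orders of magnitude within the locus. Over the 24 libraries, ssc-miR-127 averaged 1181 TPM and ranked 31st of 1587 entries, ssc-miR-370 averaged 109 TPM and ssc-miR-493-5p 24.3 TPM. ssc-miR-136-3p averaged 18.2 TPM, ssc-miR-432-5p 13.0 TPM and ssc-miR-493-3p 10.5 TPM. ssc-miR-136-5p averaged 3.10 TPM, and its lowest library held 4 reads. ssc-miR-432-3p was at the edge of detection, with 0 reads in 16 libraries and at most 3 in the others. A count of 0 allows up to 0.178 to 0.605 TPM, depending on the depth of the library, and such limits cover counting error only. ssc-miR-432-3p therefore had a mean under the 1 TPM required for testing, and 7 of the 8 members were tested among 430 entries. These 7 also averaged at least 1 TPM over the 12 BF libraries alone. Mature lengths of 20 to 23 nt are alike and values were not scaled by length, so levels of different miRNAs compare reads rather than molecules.

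In subcutaneous adipocytes the means of days 2 and 4 lay above those of days 0 and 8 in all 7 tested members, as in 14.4% of all entries. In single libraries this arch was complete, with all 6 libraries of days 2 and 4 above all 6 of days 0 and 8, for 3 of them (ssc-miR-493-3p, ssc-miR-127 and ssc-miR-136-3p), where 1.86% of all entries had it. For ssc-miR-493-3p the gap was less than the worth of 1 read, between 4.55 TPM in replicate 2 of BF-4d and 4.44 TPM in replicate 3 of BF-8d. The rule used these values, so nothing is read from the counts. Values of single libraries are listed below in the order of replicates 1, 2 and 3. ssc-miR-127 had 410, 432 and 387 TPM in BF-0d, 1054, 1255 and 547 TPM in BF-2d, 829, 896 and 766 TPM in BF-4d, and 418, 386 and 374 TPM in BF-8d. All 6 libraries of days 2 and 4 lay above all 6 of days 0 and 8, and days 0 and 8 overlapped. The step from day 0 to day 2 was 1.13 ± 0.30 on the log2(TPM + 1) scale (SE, n = 3 and 3), that from day 4 to day 8 was -1.08 ± 0.19, and the net difference of day 8 from day 0 was -0.06 ± 0.18. These time courses chose the members, so they are described and were not tested.

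The 3p arm of miR-136 had the same arch at lower levels, and the major arm of miR-432 had it in the means. ssc-miR-136-3p had 4.88, 5.44 and 7.06 TPM in BF-0d, 12.1, 13.4 and 8.63 TPM in BF-2d, 12.8, 10.9 and 12.9 TPM in BF-4d, and 7.09, 6.93 and 5.65 TPM in BF-8d. ssc-miR-432-5p had 5.06, 6.70 and 3.85 TPM in BF-0d, 9.66, 10.9 and 6.13 TPM in BF-2d, 5.62, 8.89 and 8.80 TPM in BF-4d, and 4.83, 3.71 and 3.23 TPM in BF-8d. The libraries of ssc-miR-136-3p on days 2 and 4 did not overlap those of days 0 and 8, whereas ssc-miR-432-5p on day 0 reached 6.70 TPM, above its lowest libraries of days 2 and 4. ssc-miR-136-5p had 1.54, 1.13 and 0.593 TPM in BF-0d, 2.97, 1.83 and 0.568 TPM in BF-2d, 3.51, 0.952 and 3.32 TPM in BF-4d, and 1.95, 2.10 and 0.807 TPM in BF-8d. Each of its BF days overlapped every other, on 4 to 37 reads a library, and no arch could be made out at this depth.

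The arms of miR-493 and ssc-miR-370, at the ends of the cluster, had their highest BF means on different days, while the libraries of days 2 and 4 overlapped for each of them. ssc-miR-493-5p had 5.24, 7.76 and 5.63 TPM in BF-0d, 11, 19.3 and 10.5 TPM in BF-2d, 16.7, 19.3 and 17.5 TPM in BF-4d, and 12.1, 11.1 and 10.7 TPM in BF-8d. Its highest mean was that of day 4, and its day 8 libraries overlapped those of day 2 and stayed above those of day 0, by 0.78 ± 0.23 on the log2 scale. ssc-miR-493-3p had 4.25, 2.39 and 4.33 TPM in BF-0d, 9.16, 9.01 and 5.0 TPM in BF-2d, 6.56, 4.55 and 5.83 TPM in BF-4d, and 2.49, 4.19 and 4.44 TPM in BF-8d. ssc-miR-370 had 58.9, 27.8 and 42.4 TPM in BF-0d, 161, 142 and 46.5 TPM in BF-2d, 99.8, 48.3 and 26.3 TPM in BF-4d, and 10.2, 26.0 and 25.0 TPM in BF-8d. Both had their highest mean on day 2, the libraries of ssc-miR-370 on day 4 overlapped those of day 0, and it was the member whose day 8 libraries all lay below those of day 0, by -1.08 ± 0.32. Over the 7 members, the BF libraries of day 8 thus lay wholly above day 0 for 1 and wholly below for 1, where 32.8% and 20.9% of all entries did. The value of ssc-miR-493-3p on day 8 against day 0 was 0.02 ± 0.27, and -0.12 with median-of-ratios scaling.

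**Figure D1:**
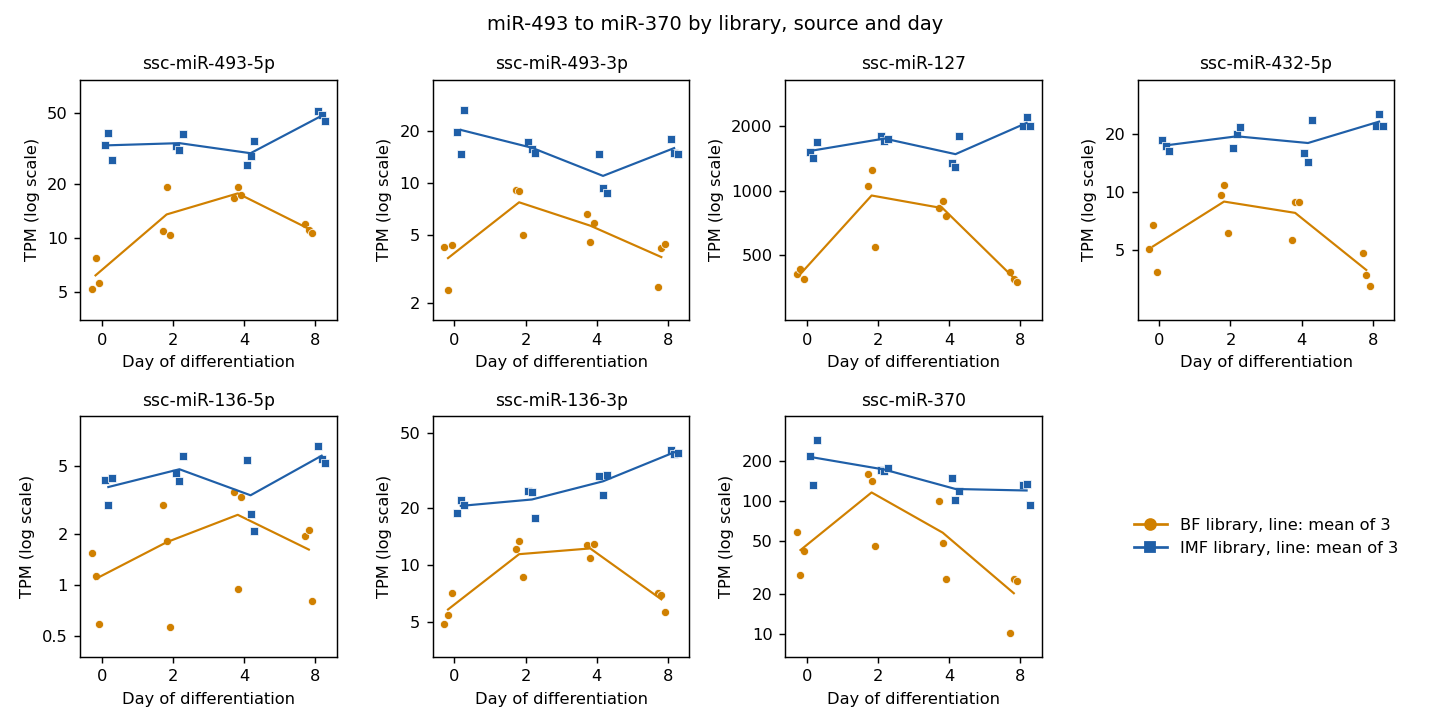
TPM on a log axis (vertical) against day of differentiation (horizontal) for the 7 tested members, with a point for each library and a line through the mean of the 3 libraries of a group. IMF lies above BF on every day in the means, the BF means of days 2 and 4 lie above those of days 0 and 8 (the BF libraries of ssc-miR-136-5p overlap on all days), and the 3 BF libraries of ssc-miR-127 on day 8 return to 374 to 418 TPM.

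Replicate 3 of BF-2d was low for all 7 of these members. Its value was 0.236 to 0.689 of the mean of replicates 1 and 2, and 547 TPM of ssc-miR-127 stood against 1054 and 1255 TPM. For the 6 other tested miRNAs of the locus, replicate 3 of BF-2d stood at 0.521 to 0.831 of that mean. Replicate 2 of IMF-4d (0.704 to 0.957) and replicate 3 of IMF-8d (0.697 to 0.989) also lay below their groups' other libraries for all 7 members. Replicate 2 of BF-2d lay above for all 7 (1.04 to 1.80). Without replicate 3 of BF-2d, a setting chosen after its values were seen, the difference of BF-2d from BF-0d was 1.49 in place of 1.13 for ssc-miR-127, 1.85 in place of 1.29 for ssc-miR-370 and 0.71 in place of 0.35 for ssc-miR-136-5p on the log2 scale. Counted over the 7 members, the BF libraries of day 2 lay wholly above those of day 0 for 4, where 13.0% of the 430 entries did. Those of day 4 and day 2 overlapped for all 7 (24.4% of all entries lay wholly above, 10.5% wholly below). Those of day 8 lay wholly below day 4 for 6 (ssc-miR-493-3p by less than the worth of 1 read), where 14.0% of all entries did, the exception being ssc-miR-136-5p. Since the time course was part of the choice of the members, nothing is read from these counts.

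In intramuscular adipocytes ssc-miR-127 varied less over days 0 to 4 and ended higher. ssc-miR-127 had 1513, 1425 and 1700 TPM in IMF-0d, 1808, 1704 and 1757 TPM in IMF-2d, 1348, 1296 and 1811 TPM in IMF-4d, and 2018, 2204 and 2011 TPM in IMF-8d. Its 3 libraries of day 8 were the highest of all 24, and lay above day 4 by 0.50 ± 0.16 on the log2 scale, while BF over the same days differed by -1.08. ssc-miR-136-3p had 18.9, 21.9 and 20.7 TPM in IMF-0d, 24.6, 24.2 and 17.7 TPM in IMF-2d, 29.7, 23.5 and 29.8 TPM in IMF-4d, and 40.7, 38.4 and 39.1 TPM in IMF-8d. Day 8 stood above day 0 by 0.91 ± 0.12, the largest such difference among the members in IMF. ssc-miR-432-5p had 18.6, 17.4 and 16.3 TPM in IMF-0d, 16.8, 19.9 and 21.6 TPM in IMF-2d, 16.0, 14.3 and 23.5 TPM in IMF-4d, and 21.9, 25.5 and 22.1 TPM in IMF-8d. Its libraries of days 0, 2 and 4 overlapped, and those of day 8 lay above days 0 and 2.

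The IMF libraries of days 0, 2 and 4 overlapped for the minor arm of miR-136 and the major arm of miR-493. ssc-miR-136-5p had 4.13, 2.95 and 4.26 TPM in IMF-0d, 4.59, 4.12 and 5.72 TPM in IMF-2d, 5.42, 2.64 and 2.08 TPM in IMF-4d, and 6.56, 5.55 and 5.23 TPM in IMF-8d. ssc-miR-493-5p had 33.3, 38.6 and 27.4 TPM in IMF-0d, 32.7, 31.3 and 38.1 TPM in IMF-2d, 25.6, 29.0 and 35.1 TPM in IMF-4d, and 51.3, 48.9 and 45.0 TPM in IMF-8d. Its day 8 libraries lay above all other IMF libraries. ssc-miR-493-3p had 19.8, 14.7 and 26.6 TPM in IMF-0d, 17.4, 15.7 and 15 TPM in IMF-2d, 14.8, 9.40 and 8.80 TPM in IMF-4d, and 18.1, 15 and 14.8 TPM in IMF-8d. Its highest mean was that of day 0, and that of the 5p arm was day 8. Both arms had their lowest mean TPM on day 4. The libraries of both lay wholly higher on day 8 than on day 4, but for the 3p arm by less than the worth of 1 read, between 14.8 TPM (167 reads) in replicate 1 of IMF-4d and 14.8 TPM (193 reads) in replicate 3 of IMF-8d.

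ssc-miR-370 ran the other way in IMF. It had 218, 133 and 289 TPM in IMF-0d, 171, 169 and 179 TPM in IMF-2d, 149, 103 and 119 TPM in IMF-4d, and 133, 135 and 93.4 TPM in IMF-8d. The mean was lower on each later day, the value of day 8 against day 0 was -0.77 ± 0.30 on the log2 scale, and the lowest library of day 0 lay within the range of day 8. From day 0 to day 8, the libraries of 5 of the 7 members lay wholly higher in IMF, where 30.9% of all entries did, and the exceptions were ssc-miR-493-3p and ssc-miR-370. From day 4 to day 8 they lay wholly higher for 4 members (ssc-miR-493-3p by less than 1 read), where 30.5% of all entries did. Over this last step the median of all entries was itself 0.18 higher on day 8, and median-of-ratios scaling moved it by -0.15. It turned no member's direction there, but ssc-miR-127 stood at 0.31 in place of 0.50, ssc-miR-136-3p at 0.32 in place of 0.50, ssc-miR-493-3p at 0.35 in place of 0.53, ssc-miR-432-5p at 0.20 in place of 0.38 and ssc-miR-370 at -0.23 in place of -0.04. The members' own steps chose them, so these counts too carry no test.

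**Figure D2:**
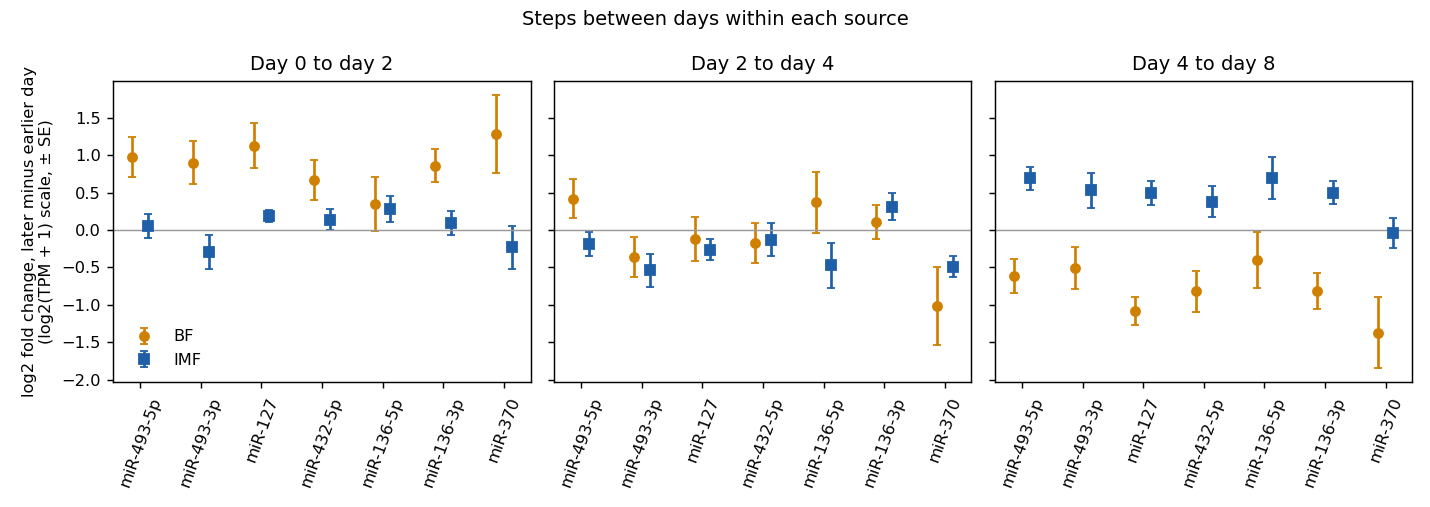
log2 fold change on the log2(TPM + 1) scale (vertical, later minus earlier day, bars are SE, 3 libraries a day) for each of 7 members (horizontal) and each step between days, in BF and IMF. From day 4 to day 8 all 7 BF values lie below 0, from -0.40 to -1.37, and 6 of 7 IMF values lie above 0, from 0.38 to 0.70, with ssc-miR-370 at -0.04 (0.20 to 0.56 and -0.23 with median-of-ratios scaling).

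The comparison of the sources on each day asked how intramuscular adipocytes differ from subcutaneous ones after the same time in culture. It was tested with limma on log2(TPM + 1) over the 430 entries. The same day need not be the same stage, since the paper reports that intramuscular cells formed lipid droplets more slowly and made fewer. The part of this in the differences was not tested. A DE-miRNA is one that changed by more than 1.5-fold at an FDR (Benjamini-Hochberg) below 0.05. On this scale the change of entries with low values is understated. On every day the members that passed were higher in IMF. For ssc-miR-127, ssc-miR-493-5p, ssc-miR-432-5p and ssc-miR-136-3p, all 12 IMF libraries lay above all 12 BF libraries, where 3.95% of the 430 entries did, with the gap that was narrowest as a ratio in ssc-miR-127, between 1255 TPM in BF-2d and 1296 TPM in IMF-4d. In bulk libraries, fewer cells that express a miRNA and less of it per cell cannot be told apart.

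On day 0, 7 of 7 tested members were DE-miRNAs and higher in IMF, where 13.5% of all entries were. ssc-miR-127 had 410 ± 22.4 TPM in BF-0d and 1546 ± 141 TPM in IMF-0d (SD, n = 3), a log2 fold change of 1.91 ± 0.09 (SE; limma, adjusted p = 3.71e-04). ssc-miR-370 had 43.0 ± 15.6 and 213 ± 78.5 TPM, a log2 fold change of 2.27 ± 0.39 (limma, adjusted p = 0.00946). The arms of miR-493 stood 2.24 ± 0.21 (5p; limma, adjusted p = 0.00150) and 2.19 ± 0.29 (3p; limma, adjusted p = 0.00451) higher, and those of miR-136 stood 1.21 ± 0.21 (5p; limma, adjusted p = 0.0102) and 1.67 ± 0.17 (3p; limma, adjusted p = 0.00202) higher. ssc-miR-432-5p had 5.20 ± 1.43 and 17.4 ± 1.14 TPM, with 1.59 ± 0.20 (limma, adjusted p = 0.00412). The median over the 7 members was 1.91 and that over all 430 entries -0.13. In all 7 the 3 IMF libraries lay above the 3 BF libraries, where 18.1% of all entries did, so each gave p = 0.1 in the exact two-sided permutation test of 3 against 3, the smallest p it allows.

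On day 2 the gap was narrower, with a median over the 7 members of 1.0, against -0.14 over all entries. 4 of 7 were DE-miRNAs, all higher in IMF, where 5.81% of all entries were. They were ssc-miR-493-5p with 1.31 ± 0.25 (limma, adjusted p = 0.0235), ssc-miR-432-5p with 1.07 ± 0.23 (limma, adjusted p = 0.0317), ssc-miR-493-3p with 1.0 ± 0.23 (limma, adjusted p = 0.0415) and ssc-miR-136-3p with 0.91 ± 0.21 (limma, adjusted p = 0.0415). ssc-miR-127 had 952 ± 365 and 1756 ± 52.1 TPM (SD, n = 3), which gave 0.97 ± 0.30 and did not pass (limma, adjusted p = 0.0932), nor did ssc-miR-136-5p with 1.15 ± 0.34 (adjusted p = 0.0852) and ssc-miR-370 with 0.75 ± 0.46 (adjusted p = 0.332). Yet the IMF libraries lay above the BF libraries for all 7, as they did for 12.8% of all entries. The number called changed with the library left out. Without replicate 1 of BF-2d, or without any 1 of the 3 IMF-2d libraries, 0 members were called, without replicate 2 of BF-2d 2 were, and without its low replicate 3 there were 5, when ssc-miR-127 passed at 0.61 ± 0.10 and ssc-miR-370 stood at 0.19 ± 0.10. The count was 6 with edgeR and 7 with DESeq2 on whole reads, and 0 with the replicate number as a block. In each limma fit with 0 called, 6 members had an unadjusted p under 0.05. The loss was general, since calls over all entries went from 53 to between 2 and 8 in the 4 fits of 5 libraries with no member called, and to 9 with the block. In those 4 fits the values of ssc-miR-493-5p were 1.19 to 1.37, against 1.31 with all libraries.

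On day 4, 6 of 7 were DE-miRNAs and higher in IMF, where 7.44% of all entries were, and the median over the members was 0.83 against -0.34. ssc-miR-370 had 58.1 ± 37.7 and 124 ± 23.1 TPM (SD, n = 3) and a log2 fold change of 1.27 ± 0.38 (limma, adjusted p = 0.0197), which was 0.81 without replicate 3 of BF-4d, below the 1.19 of ssc-miR-432-5p in that fit. ssc-miR-136-3p had 1.11 ± 0.22 (limma, adjusted p = 0.00209), ssc-miR-432-5p with 1.10 ± 0.26 (limma, adjusted p = 0.00551), ssc-miR-493-3p with 0.83 ± 0.25 (limma, adjusted p = 0.0202), ssc-miR-127 with 0.82 ± 0.22 (limma, adjusted p = 0.00940) and ssc-miR-493-5p with 0.71 ± 0.22 (limma, adjusted p = 0.0248). ssc-miR-136-5p had 2.60 ± 1.43 and 3.38 ± 1.79 TPM, overlapping libraries and a value of 0.31 ± 0.37 (limma, adjusted p = 0.555), which turned to -0.09 without replicate 2 of BF-4d and to -0.01 without replicate 1 of IMF-4d. The IMF libraries lay wholly above the BF libraries for the 6 called members, where 9.07% of all entries did. ssc-miR-127, ssc-miR-432-5p and ssc-miR-136-3p passed whichever library was left out. With no filter on low values, ssc-miR-136-3p was the 1 member still called, and ssc-miR-127 and ssc-miR-432-5p had adjusted p of 0.0668 and 0.0972 (limma). ssc-miR-493-5p no longer passed without replicate 1 or 3 of BF-4d or replicate 2 or 3 of IMF-4d (adjusted p up to 0.0896), ssc-miR-493-3p without replicate 2 of BF-4d or replicate 1 of IMF-4d (up to 0.136), and ssc-miR-370 without replicate 3 of BF-4d or replicate 1 or 3 of IMF-4d (up to 0.0756), all in limma.

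On day 8 the gap was widest in the median, at 2.30 over the 7 members against -0.28 over all entries. 7 of 7 were DE-miRNAs and higher in IMF, where 12.1% of all entries were, and their libraries did not overlap, as in 16.3% of all entries. ssc-miR-127 had 393 ± 23.0 TPM in BF-8d and 2078 ± 110 TPM in IMF-8d (SD, n = 3), a ratio of the means of 5.29 and a log2 fold change of 2.40 ± 0.15 (limma, adjusted p = 5.09e-08). ssc-miR-370 had 20.4 ± 8.84 and 120 ± 23.5 TPM, with 2.59 ± 0.30 (limma, adjusted p = 1.13e-05). ssc-miR-136-3p had 6.56 ± 0.789 and 39.4 ± 1.20 TPM, a ratio of 6.01, with 2.42 ± 0.19 (limma, adjusted p = 3.45e-07). The arms of miR-493 stood 2.01 ± 0.18 (5p; limma, adjusted p = 1.15e-06) and 1.87 ± 0.23 (3p; limma, adjusted p = 2.30e-05) higher. ssc-miR-432-5p stood 2.30 ± 0.21 higher (limma, adjusted p = 1.40e-06) and ssc-miR-136-5p 1.41 ± 0.25 (limma, adjusted p = 5.28e-04). These calls and those of day 0 were kept by all 7 members whichever library was left out. Whether the size of the gap differed between days was not tested, because that difference is made of the time courses that chose the members.

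**Figure D3:**
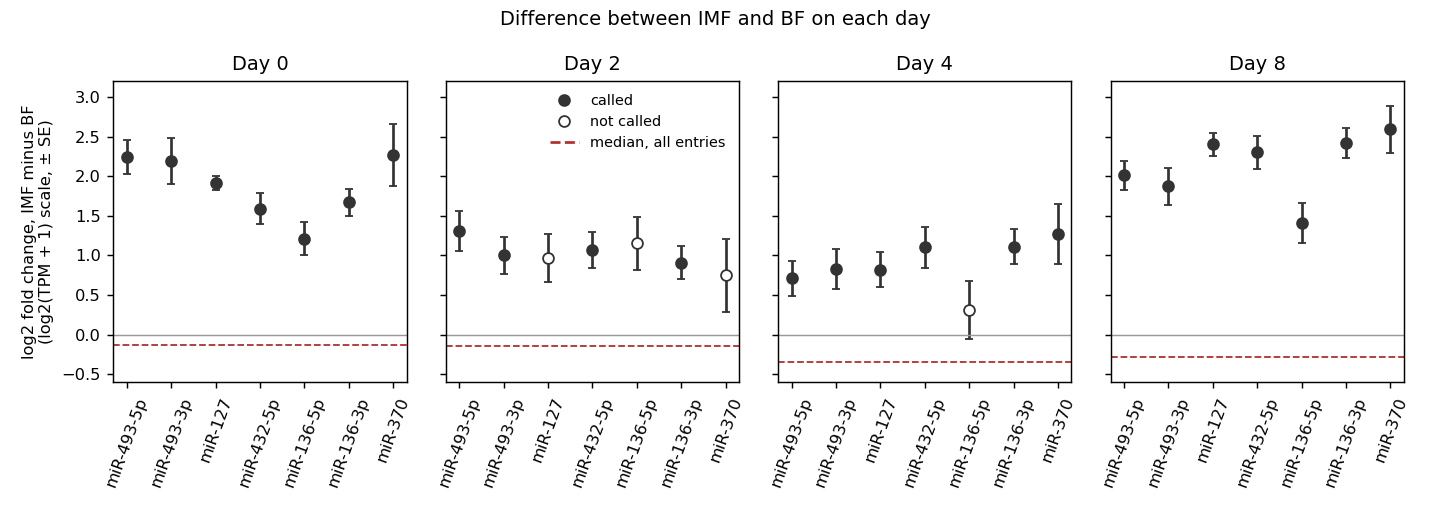
log2 fold change of IMF minus BF on the log2(TPM + 1) scale (vertical, bars are SE, 3 against 3 libraries) for 7 members in their order along the chromosome (horizontal) on each day, filled where called and open where not, with a dashed line at the median of all 430 entries. The members' medians were 1.91, 1.0, 0.83 and 2.30 on days 0, 2, 4 and 8, and all 28 values lie above the dashed line.

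The whole set of reads was not centred between the sources. Median-of-ratios scaling of the libraries moved the median of all entries up by 0.12, 0.13, 0.34 and 0.25 on days 0, 2, 4 and 8, and the members moved up with it, so no member changed direction between the sources. On day 4 ssc-miR-127 stood at 1.25 in place of 0.82 and ssc-miR-493-5p at 1.12 in place of 0.71. Markers of other cell types were compared as well. The summed endothelial marker miR-126 was 26.4 to 90.9 TPM in BF and 18.2 to 40.4 TPM in IMF libraries. The sources overlapped on days 0 and 2. On day 4 it was 53.6 to 86.4 TPM in BF and 18.7 to 30.9 TPM in IMF, and on day 8 51.2 to 90.9 and 24.6 to 34.8 TPM. The 7 skeletal muscle entries (arms of miR-1, miR-133, miR-206 and miR-499) summed to 475 to 544 TPM in BF-2d against 814 to 1065 TPM in IMF-2d, and to 1324 to 2362 TPM in BF-8d against 982 to 1632 TPM in IMF-8d, which overlapped, as they did on day 0. On day 4 they were 1043 to 1526 TPM in BF and 696 to 985 TPM in IMF. On day 8 this sum was nearly that of ssc-miR-1, which averaged 1737 TPM in BF and 1228 TPM in IMF. ssc-miR-133a-3p averaged 22.4 and 26.6 TPM there, and ssc-miR-499-5p 11.9 and 12.1 TPM, both slightly higher in IMF. Blood markers summed to 6.48 to 7.01 TPM in IMF-8d, above the 1.93 to 3.35 TPM of BF-8d and the 0.284 to 0.772 TPM of IMF-4d, and were lower in IMF-4d than in BF-4d (1.52 to 3.77 TPM). On day 8 the blood sum was nearly that of ssc-miR-486 alone, which averaged 6.27 TPM in IMF and 2.43 TPM in BF. Leukocyte markers were at most 2.60 TPM and epithelial markers at most 1.54 TPM in any library, and none of the marker entries was at 0 in every library. The part of endothelial, muscle and blood markers in the differences between the sources and in the IMF step from day 4 to day 8 was not tested.

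Summed over the 8 members, the cluster made up 475 ± 20.8, 1112 ± 433, 935 ± 81.7 and 440 ± 16.6 TPM in BF on days 0, 2, 4 and 8 and 1854 ± 217, 2026 ± 54.2, 1699 ± 292 and 2331 ± 126 TPM in IMF (SD, n = 3). This was at most 0.247% of the miRNA reads of a library. ssc-miR-127 held 83.5% to 89.2% of the sum in the means of the groups, so the sum is nearly a copy of its course. Without ssc-miR-127 and ssc-miR-370, the sum was 22.0 ± 1.36, 43.4 ± 12, 46.1 ± 2.10 and 27.1 ± 1.98 TPM in BF and 95.1 ± 0.376, 96.6 ± 1.45, 90.0 ± 10.3 and 133 ± 6.16 TPM in IMF.

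The arms of a precursor are cut from the same hairpin, and one is usually kept. ssc-miR-493-5p exceeded ssc-miR-493-3p in all 24 libraries, with 6571 against 2769 reads in sum and a ratio of 1.03 to 4.84 in single libraries. ssc-miR-136-3p exceeded ssc-miR-136-5p in all 24, with 5008 against 829 reads and a ratio of 3.09 to 15.2. ssc-miR-432-5p had 3518 reads and ssc-miR-432-3p 14, which is 0.396% of the reads of both arms (95% Wilson interval 0.236% to 0.664%, counting error only). In the means the order of the arms was thus fixed over source and day, with 5p as the major arm of miR-493 and miR-432 and 3p as that of miR-136.

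The mean ratio of the miR-493 arms was higher on days 4 and 8 than on days 0 and 2 in both sources, while in BF the libraries of days 0 and 8 overlapped. In BF the ratio of 5p to 3p was 1.93 ± 1.14, 1.81 ± 0.529, 3.26 ± 0.870 and 3.30 ± 1.34 on days 0, 2, 4 and 8 (SD, n = 3), and in IMF it was 1.78 ± 0.806, 2.14 ± 0.350, 2.93 ± 1.14 and 3.05 ± 0.214. The single libraries of BF-0d had 1.23, 3.25 and 1.30 and those of BF-8d had 4.84, 2.65 and 2.41. IMF-0d had 1.68, 2.63 and 1.03 and IMF-8d had 2.84, 3.27 and 3.03, which did not overlap. Within a day, BF and IMF overlapped in this ratio throughout. The ratio of 3p to 5p of miR-136 was 6.63 ± 4.63, 8.86 ± 5.72, 6.32 ± 4.44 and 4.65 ± 2.04 in BF and 5.62 ± 1.56, 4.77 ± 1.48, 9.57 ± 4.46 and 6.87 ± 0.639 in IMF. It followed no order of days. Its highest values were 15.2 in replicate 3 of BF-2d, on 76 against 5 reads, and 14.3 in replicate 3 of IMF-4d, on 315 against 22 reads. Few reads of the 5p arm did not always go with a high ratio, as replicate 2 of BF-8d had 3.31 on 43 against 13 reads. The arm ratios belong to the choice of the members and were not tested.

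**Figure D4:**
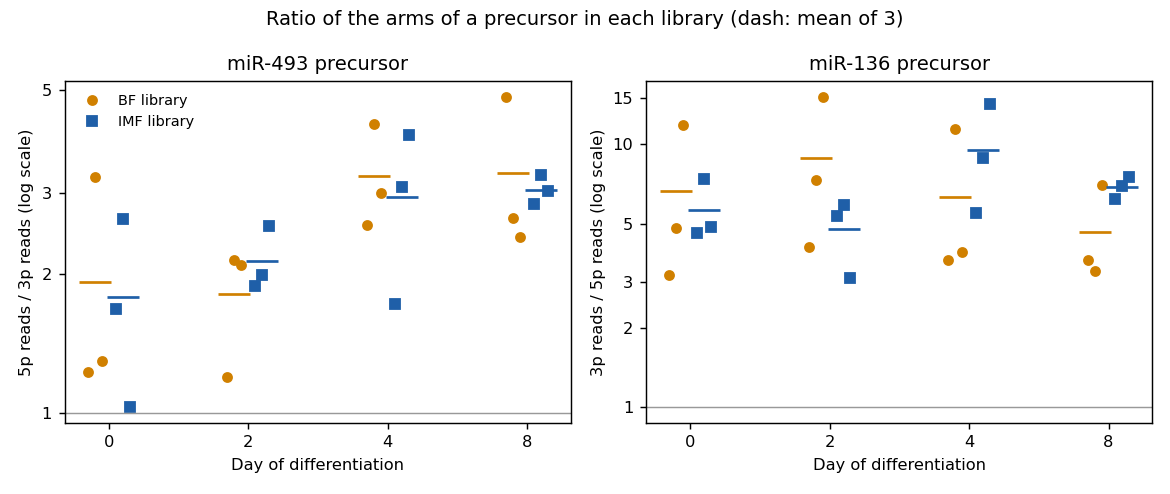
Ratio of the major to the minor arm on a log axis (vertical) in each library by day of differentiation (horizontal), for the miR-493 precursor (left) and the miR-136 precursor (right), with a dash at the mean of 3 libraries. All 24 libraries lie above 1 in both panels, and the means of the miR-493 ratio lie at 1.78 to 2.14 on days 0 and 2 and at 2.93 to 3.30 on days 4 and 8.

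Across libraries, the arms agreed less within a source than over both sources together. Pearson's r of log2(TPM + 1) between the miR-493 arms was 0.825 over the 24 libraries, 0.448 over the 12 of BF and -0.0270 over the 12 of IMF. Between the miR-136 arms it was 0.802, 0.549 and 0.315. These are descriptions over points that share libraries and depth, and the values pooled over both sources include the gap between them. The closest pairs of members were not made of arms. ssc-miR-127 and ssc-miR-432-5p, 1.5 kb apart, had the highest r over all (0.967) and in IMF (0.832), with 0.887 in BF, where ssc-miR-127 and ssc-miR-136-3p had 0.912. Over the 21 pairs of members, r was 0.178 to 0.912 within BF and -0.619 to 0.832 within IMF, where 7 pairs were below 0.

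Of the other miRNAs named for the locus, 11 rows were in the table and 6 averaged at least 1 TPM. The sequences of these 6 were found on an unplaced scaffold of the build that also holds DIO3, so their distance from the chromosome 7 members is not known. ssc-miR-381-3p averaged 15335 TPM, the eighth highest of all entries, followed by ssc-miR-758 with 132 TPM and ssc-miR-411 with 17.9 TPM. The DE-miRNAs among the 6 were all higher in IMF, and numbered 6, 3, 5 and 6 on days 0, 2, 4 and 8, where 13.5%, 5.81%, 7.44% and 12.1% of all entries were called higher in IMF, with medians of 1.84, 1.08, 1.10 and 2.21. On day 0 the called values went from 1.55 in ssc-miR-382 to 2.16 in ssc-miR-381-3p, and on day 2 from 1.08 in ssc-miR-758 to 1.16 in ssc-miR-323. On day 4 they went from 0.79 in ssc-miR-299 to 1.68 in ssc-miR-411, and on day 8 from 1.64 in ssc-miR-323 to 2.87 in ssc-miR-411. The members' medians of 1.91, 1.0, 0.83 and 2.30 lay beside these, and the difference between the proximal and the other rows was not tested. The other rows summed to 8.87 to 13.7 times the proximal sum in the means of the groups. This sum was nearly all ssc-miR-381-3p, with 6006 of 6054 TPM in BF-8d and 30049 of 30364 TPM in IMF-8d. The ratio is thus one of ssc-miR-381-3p rather than of the other rows as a group.

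**Figure D5:**
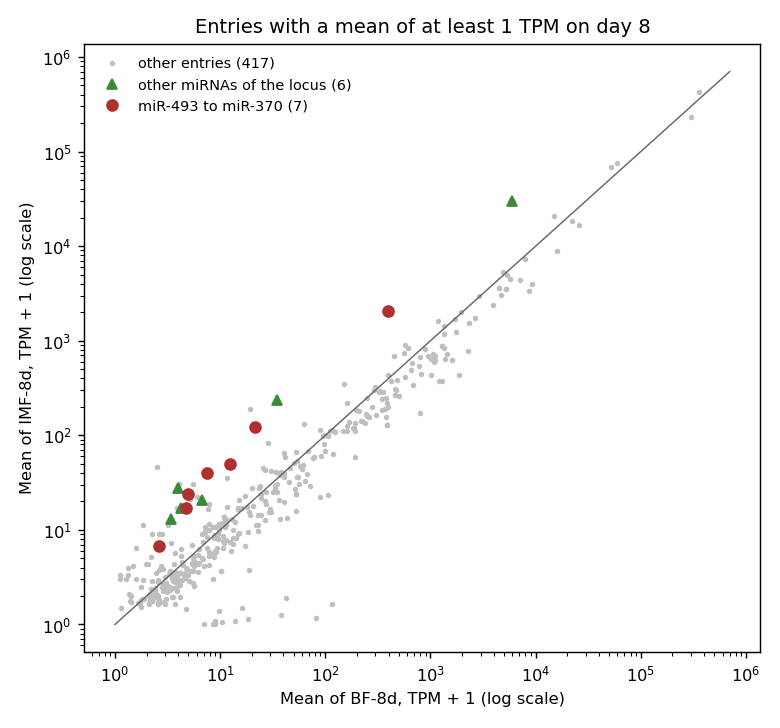
Mean TPM + 1 in IMF-8d (vertical) against that in BF-8d (horizontal), both on log axes, for the 430 tested entries, with the line of equal values. The 7 proximal members and the 6 other miRNAs of the locus all lie above the line. Their differences of mean log2(TPM + 1), which differ slightly from the distances of the plotted means, were 1.41 to 2.59 and 1.64 to 2.87.

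The 5 entries outside the named locus list whose pattern was most like the members' mean profile (mean of z-scored log2(TPM + 1), Pearson's r over the 24 libraries) were all newly predicted miRNAs. They were novel_miR_190 with r = 0.957, novel_miR_2 with 0.954, novel_miR_884 with 0.940, novel_miR_1098 with 0.930 and novel_miR_1047 with 0.921, against 0.971 for ssc-miR-758 and 0.965 for ssc-miR-381-3p of the locus. novel_miR_190 averaged 7.23 TPM in BF and 19.2 TPM in IMF, and its r was 0.953 within BF but 0.285 within IMF. novel_miR_2 averaged 13.6 and 32.7 TPM, with 0.913 within BF and 0.402 within IMF. A mature sequence was at hand for 1 of the 5, novel_miR_2, which is shown because of where it lies:

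novel_miR_2: aGATATTGcacggttgatctct

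It matched Sscrofa11.1 once, at positions 41747 to 41768 of the unplaced scaffold that holds the other miRNAs of the locus, between ssc-miR-758 at 32770 and ssc-miR-381-3p at 50074, on the same strand. Its seed, in capitals, was found in no other entry with a sequence.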

How the data were processed

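Small RNA of 24 cultures' libraries was sequenced by the authors as 50-base single-end reads, mapped to Sscrofa11.1 with Bowtie without mismatches, cleared of other noncoding RNA and assigned to miRBase miRNAs and to hairpins that miRDeep2 predicted. The authors deposited RPM, under the name TPM. Each library sums to 1000000, and the 38088 values were whole reads to within 4.52e-04 of a read. No molecular identifiers were named.

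The members, the lists of other miRNAs and the comparisons were chosen with earlier results of these data known. Named were all rows of the members, of the other locus miRNAs the 3 with the highest mean and those with the largest and smallest called difference on each day, and the 5 entries most like the members. IMF and BF were compared on each day with limma 3.58.1 (eBayes with trend, R 4.3.3) on log2(TPM + 1) over the 430 entries that averaged 1 TPM or more, each fit on the 3 and 3 libraries, with Benjamini-Hochberg adjustment. Calls needed an FDR below 0.05 and more than a 1.5-fold change. The exact two-sided permutation test of 3 against 3 cannot give a p under 0.1. Time courses and arm ratios were described without a test. In data simulated on IMF vs BF of day 0, with 200 of 430 entries changed, 71.3% of 2-fold, 87.4% of 3-fold and 92.1% of 4-fold changes were recovered. Libraries of a group differed by more than counting error (lowest chi-square over its degrees of freedom 19.3), so none was taken as deposited repeatedly.

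Alternatives were a pseudocount of 0.1 TPM, no filter, a filter of 10 TPM, a joint fit of the 24 libraries, a replicate block, FDR alone, scaling by median of ratios, entries with one mature sequence merged, edgeR 4.0.16 and DESeq2 1.42.0 on whole reads, and leaving out each library. Mature sequences were matched to the genome on both strands without mismatches.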

Additional observations from a re-analysis of the deposited data

Results flagged for a closer look

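From day 4 to day 8, the libraries of BF and IMF lay wholly on opposite sides for 4 of the 7 members with a mean of at least 1 TPM, where 1.86% of the 430 entries lay wholly lower on day 8 in BF and wholly higher in IMF. Of the other miRNAs of the locus, ssc-miR-381-3p (-0.45 in BF and 0.62 in IMF) and ssc-miR-758 (-0.89 and 0.41) did so too on the log2 scale, so 6 of these 8 entries were from the locus. This step was part of the choice of the members. The 3 BF libraries of day 8 lay below the 3 of day 4, and the 3 IMF libraries of day 8 lay above the 3 of day 4. For ssc-miR-493-3p both gaps were less than the worth of 1 read, so that its place among the 4 is not firm. For ssc-miR-127 the log2 fold change was -1.08 in BF and 0.50 in IMF, and for ssc-miR-136-3p it was -0.81 in BF and 0.50 in IMF. For ssc-miR-493-5p it was -0.61 in BF and 0.69 in IMF, and for ssc-miR-493-3p it was -0.51 in BF and 0.53 in IMF. The BF value of ssc-miR-493-3p owes in part to replicate 1 of BF-8d, with 2.49 TPM against 4.19 and 4.44 TPM. With median-of-ratios scaling the IMF values were 0.31 for ssc-miR-127, 0.32 for ssc-miR-136-3p, 0.50 for ssc-miR-493-5p and 0.35 for ssc-miR-493-3p. The difference between the sources was not tested, since the time courses chose the members. For ssc-miR-432-5p, ssc-miR-136-5p and ssc-miR-370 the libraries of at least 1 source overlapped over this step.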

How the results depend on the processing

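The number of members called between IMF and BF was 7 on day 0 and 7 on day 8, and lay at 6 or 7 on both days under all alternatives, with 6 where only 6 members were tested (a filter of 10 TPM) and on day 0 also without a filter, where ssc-miR-136-5p no longer passed. On day 2, with 4 called, it was 2 with a pseudocount of 0.1 TPM, 0 without a filter and 0 with the replicate number as a block (6 members with an unadjusted p under 0.05 in limma in both), 5 with a filter of 10 TPM, 6 with one fit of all libraries, with median-of-ratios scaling or with edgeR, and 7 with DESeq2, and FDR alone and merging left 4. Over all entries, the 53 calls of that day became 42, 2 and 9 in the first 3 of these fits and 51 to 69 in the others. On day 4, with 6 called, it was 1 without a filter (50 against 156 calls over all entries) and 6 under the other alternatives that kept all libraries. Leaving out 1 library gave 7 to 7 on day 0, 0 to 5 on day 2, 4 to 5 on day 4 and 7 to 7 on day 8. The cause of these changes in the counts was not tested. All differences kept their sign, except that of ssc-miR-136-5p on day 4, which ranged from -0.09 to 0.52 without 1 library and was -0.01 without replicate 1 of IMF-4d. Of the 416 values of single members between the sources, 360 kept their side of the thresholds, 43 no longer passed, 11 newly passed and 2 reversed.

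Replicate numbers were not taken as pairs: 6 of 12 same-numbered pairs of libraries had a correlation of deviations above 0.1, from -0.33 to 0.51. With the replicate block, 7, 0, 6 and 7 members were called on days 0, 2, 4 and 8. Of the log2 differences of day 8 from day 0 within a source, 135 of 140 alternatives moved by less than 1 SD between libraries. The 5 that moved more were of ssc-miR-127, in BF to between -0.19 and -0.25 and in IMF to 0.32, and of ssc-miR-136-3p in IMF, to 0.83. Depth limits ssc-miR-432-3p and ssc-miR-136-5p, with at most 3 reads and as few as 4 reads in a library.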

Other observations

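Within IMF the arms of miR-493 resembled different members. ssc-miR-493-3p, whose mature sequence also has a copy on chromosome 2, had Pearson's r of log2(TPM + 1) with ssc-miR-370 of 0.901 over 24 libraries, 0.848 within BF and 0.771 within IMF, and with ssc-miR-127 of 0.901, 0.798 and 0.195. ssc-miR-493-5p had 0.653, 0.178 and -0.425 with ssc-miR-370, and 0.929, 0.728 and 0.746 with ssc-miR-127. Within IMF, ssc-miR-370 also had -0.619 with ssc-miR-136-3p and -0.0814 with ssc-miR-127. The libraries are the same for all pairs, so these values share depth and scaling.

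In IMF-0d, replicate 3 had the highest ssc-miR-370 (289 TPM) and the highest ssc-miR-493-3p (26.6 TPM) of all libraries, and replicate 2 the lowest of that day (133 and 14.7 TPM), while ssc-miR-493-5p had the opposite order (27.4 TPM in replicate 3 and 38.6 TPM in replicate 2). In BF-8d, replicate 1 was the lowest in ssc-miR-370 (10.2 TPM) and ssc-miR-493-3p (2.49 TPM) and the highest in ssc-miR-493-5p (12.1 TPM).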
